A study of Mus musculus with 6 samples.

Results

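The genes described here are 9 of the 31053 genes in the count matrices: Apoe, Apoc1, Trem2, Lpl, Spp1, Cst7, Cd9, Lgals3 and Gpnmb. They are lipid-handling and phagocytic genes that mark microglia in disease, and they were chosen with the difference between the groups in microglia already known, so their levels in those cells are given as a description, with no test. The same holds for Apoe and Cd9 in the other retinal cell types. Single retinal cells were sequenced in droplets from pups with oxygen-induced retinopathy (OIR), in which vessels are lost and then regrow abnormally, and from controls (Ctrl) without this treatment. OIR pups were kept in 75% oxygen from postnatal day 7 to day 12 and then in room air for 5 days, and retinas of both groups were taken at day 17. There were 3 OIR and 3 Ctrl libraries, each from 2 mice pooled, so no value belongs to a single animal and the spread between libraries is the only replicate error. The nursing mothers shared the oxygen, and the sources used here give neither the strain nor a genetic change in either group.

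Microglia are the resident phagocytes of the retina. In neurodegeneration, myelin loss and injury, part of them takes up lipid and debris and passes into what is known as the disease-associated microglia (DAM) state, in which homeostatic genes such as P2ry12 and Tmem119 fall and genes of lipid transport, lysosomes and the extracellular matrix rise. Apolipoprotein E carries cholesterol and phospholipid between cells, and TREM2 is a surface receptor for lipids and lipoproteins, including apolipoprotein E, that signals through the adaptor TYROBP and is needed for the full DAM state. In the retina Müller glia are also known as a main source of apolipoprotein E.

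Of 47631 barcodes, 38569 passed the study's limits on genes and mitochondrial counts, and the libraries held 15788524 to 42606878 unique molecular identifiers (UMIs, counted RNA molecules). Pairs of libraries shared 3 to 17 barcodes. The labels give the tissue as retinal endothelial cells, but 25356 of the kept cells were rod-like and 191 were vascular endothelial cell (VEC)-like. A single cluster of 244 cells was named microglia-like, of which 243 held at least 8 of the 12 microglia markers used for naming. Trem2 is not among those 12 markers. The OIR libraries gave 71, 17 and 21 microglia-like cells and the Ctrl libraries 81, 20 and 34. OIR cells were deeper, with median UMIs of 10739, 9673 and 11795 against 6911, 7005 and 5603 in Ctrl. Levels are therefore given as CPM, the UMIs of a gene per 1000000 UMIs of the microglia-like cells of a library, and shares of positive cells are also given at equal depth. Counting intervals and floors cover counting error only. Xist counts exceeded Y-linked counts in 0 of 3 OIR and 2 of 3 Ctrl libraries, so sex was not balanced between the groups.

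The members lie on 7 chromosomes of the mouse genome (GRCm38). Apoe (ENSMUSG00000002985) spans chr7:19696109-19699188 and Apoc1 (ENSMUSG00000040564) chr7:19689481-19692660, both on the minus strand, with 3448 bases between them. Trem2 (ENSMUSG00000023992) spans chr17:48346401-48354147, Lpl (ENSMUSG00000015568) chr8:68880491-68907448 and Spp1 (ENSMUSG00000029304) chr5:104435118-104441050. Cst7 (ENSMUSG00000068129) spans chr2:150570415-150578944 and Lgals3 (ENSMUSG00000050335) chr14:47367751-47386160. Cd9 (ENSMUSG00000030342, chr6:125460266-125494791) and Gpnmb (ENSMUSG00000029816, chr6:49036546-49070929) lie on one chromosome, far apart.

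RefSeq promoter sequences (GRCm38.p6) matched 7 of the 9 members, with 10 promoters. The 250 bases before the start are printed for Apoe, Trem2 and Spp1, the members with the motif in capitals, so that the letters around it can be read. Capitals mark GAGGAA or its reverse complement, the core letters of the site known for PU.1 (Spi1), the transcription factor that defines the microglial lineage.
Apoe, chr7:19699189-19699438, minus strand: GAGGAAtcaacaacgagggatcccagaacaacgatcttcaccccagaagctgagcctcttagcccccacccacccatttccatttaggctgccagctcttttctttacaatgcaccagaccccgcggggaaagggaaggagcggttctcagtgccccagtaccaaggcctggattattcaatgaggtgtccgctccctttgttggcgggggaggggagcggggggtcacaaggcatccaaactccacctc
Trem2, chr17:48346151-48346400, plus strand: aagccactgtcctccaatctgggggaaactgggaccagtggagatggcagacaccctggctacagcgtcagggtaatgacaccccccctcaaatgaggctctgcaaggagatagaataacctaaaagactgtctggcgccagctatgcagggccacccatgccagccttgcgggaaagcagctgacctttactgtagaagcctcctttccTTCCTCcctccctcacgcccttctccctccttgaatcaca
Spp1, chr5:104434861-104435110, plus strand: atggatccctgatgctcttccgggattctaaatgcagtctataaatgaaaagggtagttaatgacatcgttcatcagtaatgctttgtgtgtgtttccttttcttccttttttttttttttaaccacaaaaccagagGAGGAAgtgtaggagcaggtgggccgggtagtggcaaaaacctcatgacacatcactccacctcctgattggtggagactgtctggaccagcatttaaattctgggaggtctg
The motif was in 4 of the 10 member promoters, of 3 members, and on either strand 23.3% of all 32851 promoters of this length hold it. It was 1 of 7 motifs searched on both strands, and it was chosen for display after its matches were seen. GGAAGT, an ETS core that can overlap GAGGAA, was in promoters of Cst7 and Spp1 (19.7% of all promoters) and TGANTCA, an AP-1 site, in that of Trem2 (6.75%). ACGTG (16.6%), CACGTG (6.02%), TCACGTG (3.13%), which overlap each other, and TTCCNGGAA (0.913%) were in none of the 10. A match is a description of the letters, not a binding site.

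Apoe was counted 2850 to 31908 times in the microglia-like cells of each library. Its levels were 41436, 44010 and 50978 CPM in OIR-1, OIR-2 and OIR-3 and 16055, 19935 and 19664 CPM in Ctrl-1, Ctrl-2 and Ctrl-3. The groups did not overlap, and the lowest OIR library held more than any Ctrl library. The means were 45475 ± 4937 CPM (SD, n = 3) in OIR and 18551 ± 2166 CPM (SD, n = 3) in Ctrl, a ratio of 2.45. Median Apoe per 10000 UMIs of a cell was 407, 442 and 531 in the OIR libraries and 125, 183 and 191 in the Ctrl libraries, and 108 of 109 OIR cells and 134 of 135 Ctrl cells held an Apoe UMI. The highest single cell gave 1502 of 31908 Apoe UMIs in OIR-1.

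**Figure D1:**
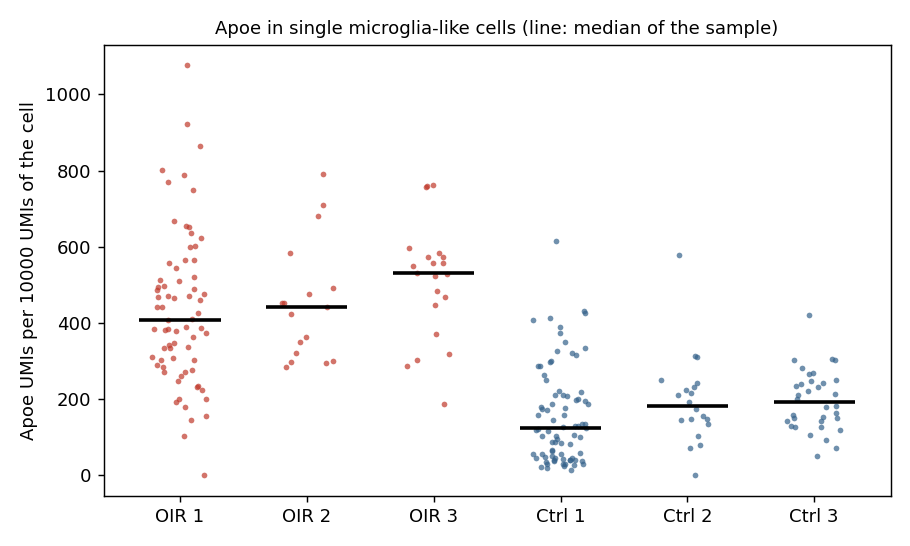
Apoe per 10000 UMIs in each microglia-like cell, by library, with the median of each library. The OIR medians lie between 407 and 531 and the Ctrl medians between 125 and 191, while single cells of the groups overlap.

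Apoc1 encodes a small apolipoprotein that rides on the same particles as apolipoprotein E and inhibits lipid-clearing enzymes. It was counted 348, 126 and 100 times in the OIR libraries and 13, 2 and 14 times in the Ctrl libraries, which is 452, 699.7 and 402 CPM against 22.1, 14.0 and 73.8 CPM. All OIR libraries lay above all Ctrl libraries, and the ratio of the means was 14.1. Unlike Apoe, Apoc1 was undetected in many cells of every library. In OIR 33 of 71, 10 of 17 and 11 of 21 cells held an Apoc1 UMI, against 5 of 81, 2 of 20 and 6 of 34 Ctrl cells. A few cells held much of the count, with 106 UMIs in one OIR-1 cell, 54 in one OIR-2 cell and 54 in one OIR-3 cell. Without the highest of all these cells the OIR-1 level was 326 CPM, still above each Ctrl library. Within libraries, median Apoe per 10000 UMIs was 426 in OIR-1 cells with Apoc1 and 383 in those without. It was 452 and 362 in OIR-2 and 556 and 495 in OIR-3. The few Ctrl cells with Apoc1 had 102, 229 and 258 in Ctrl-1, Ctrl-2 and Ctrl-3, against 126, 183 and 172 without, so Ctrl-1 went the other way. Cells with Apoc1 also had the higher median UMIs in every library. Apoe was thus high also in OIR cells with no Apoc1 UMI, above the Ctrl medians.

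The genes beside this pair on chromosome 7 were looked at after the members' values were known. Tomm40, a mitochondrial import gene next to Apoe, had 89.6, 44.4 and 44.2 CPM in OIR and 64.6, 49.0 and 79.1 CPM in Ctrl. The groups overlapped (log2 fold change 0.046, edgeR adjusted p = 0.996). Apoc4 was counted 6, 8 and 0 times in OIR and 2, 0 and 0 times in Ctrl, and Apoc2 only 1 time, in Ctrl-1.

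Lpl, the lipase that frees fatty acids from lipoprotein triglyceride, had 77.9, 639 and 84.4 CPM in OIR and 79.9, 21.0 and 58.0 CPM in Ctrl. The groups overlapped, and OIR-2 stood apart because 103 of its 115 Lpl UMIs came from one cell. Without that cell OIR-2 had 76.4 CPM and the means were 79.6 CPM in OIR and 53.0 CPM in Ctrl.

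Trem2, the lipid receptor, was the flattest member. It had 2071, 2232 and 2339.7 CPM in OIR and 2235, 1812 and 2231 CPM in Ctrl, and was found in 242 of the 244 cells. The groups overlapped, with means of 2214 ± 135 and 2093 ± 243 CPM (SD, n = 3). The ligand Apoe therefore differed between the groups at a receptor transcript level that lay within the spread of the libraries.

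Cst7 encodes cystatin F, an inhibitor of lysosomal cysteine proteases. It had 67.5, 44.4 and 80.4 CPM in OIR and 20.4, 21.0 and 21.1 CPM in Ctrl, a ratio of 3.08 with no overlap. The counts were small, from 8 to 52 UMIs in OIR and 3 to 12 in Ctrl. Gpnmb, a membrane glycoprotein of lipid-laden phagocytes and pigment cells, was counted 20, 9 and 5 times in OIR, in a single cell of each library, and 0 times in all Ctrl libraries. Over the pooled groups its OIR level was 8.70 times a floor of 3 counts over the Ctrl group. This ratio leaves out the error of the OIR count and is not a lower bound. It rests on 3 cells, each with macrophage marker UMIs as given below.

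Spp1 (osteopontin) and Lgals3 (galectin-3) are secreted ligands of integrins and of glycans. Spp1 had 478, 94.4 and 28.1 CPM in OIR and 17.01, 0 and 5.27 CPM in Ctrl with no overlap, and the OIR libraries differed widely among themselves. In OIR-1 a pair of cells gave 208 and 144 of 368 Spp1 UMIs, and without the higher of them OIR-1 had 212 CPM. Most of that remaining level came from the other cell of the pair, and no further OIR-1 cell held more than 9 Spp1 UMIs. Lgals3 had 291, 1099.55 and 24.1 CPM in OIR and 27.2, 0 and 0 CPM in Ctrl. The groups overlapped, and all 198 Lgals3 UMIs of OIR-2 came from 1 cell.

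Cd9, a tetraspanin of the cell surface and of secreted vesicles, ran the other way. It had 1105, 994 and 1122 CPM in OIR and 1936, 1413 and 1329 CPM in Ctrl, so every OIR library lay below every Ctrl library. The means were 1074 ± 69.4 and 1559 ± 329 CPM (SD, n = 3), a ratio of Ctrl to OIR of 1.45. Median Cd9 per 10000 UMIs was 9.60, 5.81 and 8.43 in OIR cells and 17.4, 11.5 and 12.1 in Ctrl cells. The size leaned on Ctrl-1: in the fit the log2 fold change was -0.53 (SE 0.24) with all libraries and -0.25 without Ctrl-1.

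**Figure D2:**
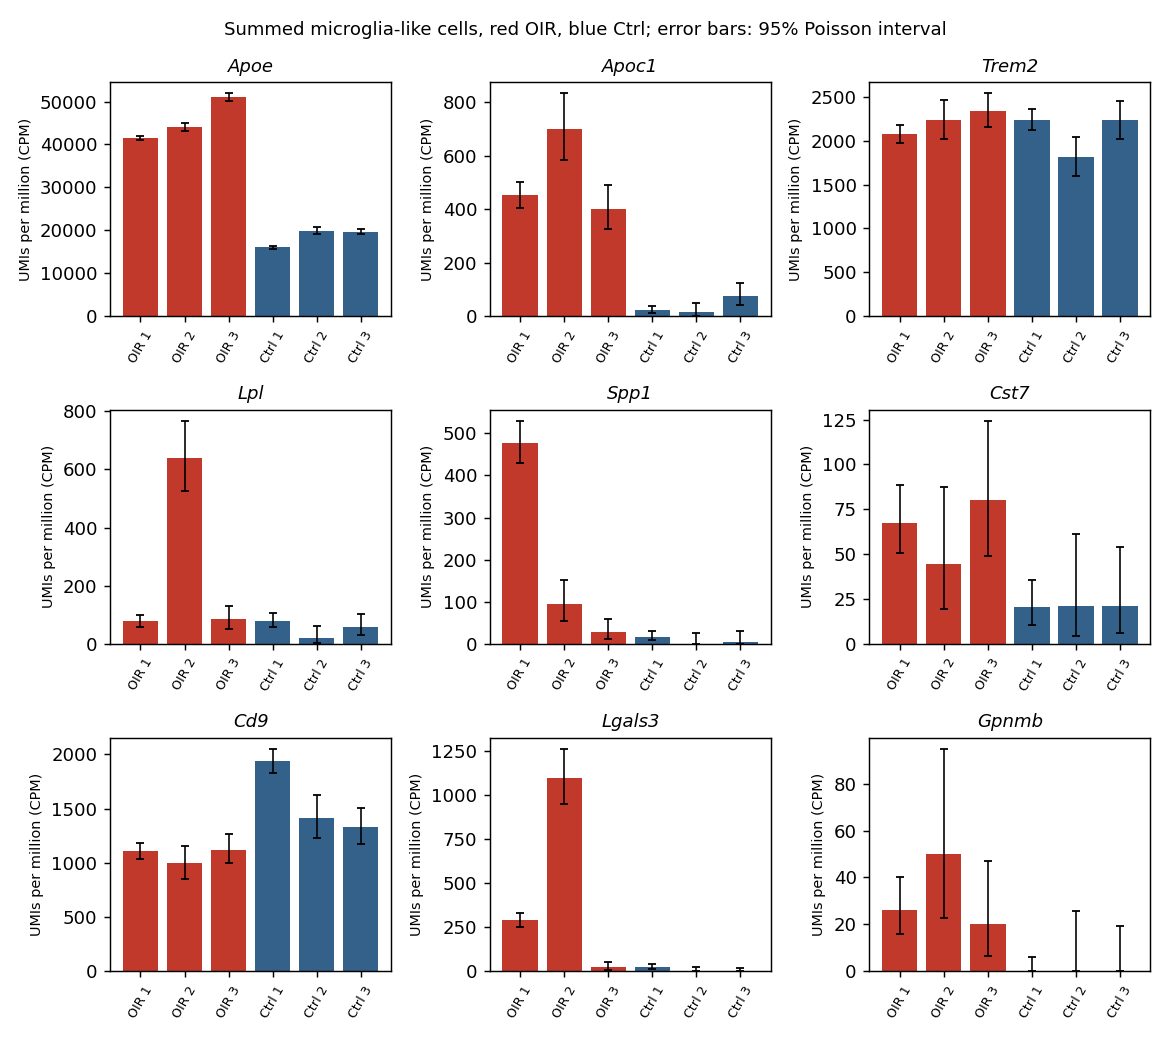
CPM of the 9 members in microglia-like cells, 1 bar per library on a linear axis, OIR and Ctrl side by side. Error bars are 95% Poisson intervals. Apoe, Apoc1, Spp1, Cst7 and Gpnmb show no overlap with OIR higher, Cd9 none with OIR lower, and Trem2, Lpl and Lgals3 overlap.

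In all, 6 of the 9 members did not overlap between the groups, 5 higher and 1 lower in OIR. Of all 3393 genes tested in microglia, 6.6% lay higher and 8.49% lower in this way, but the members were chosen on this contrast and nothing is read from the comparison. The filter on low counts kept 5 members, Apoe (log2 fold change 1.33, SE 0.23), Apoc1 (3.91, SE 0.40), Trem2 (0.098, SE 0.21), Lpl (1.94, SE 0.68) and Cd9. It removed Spp1, Cst7, Lgals3 and Gpnmb, which are therefore not among the 3393 genes of those shares. Without OIR-2 the Lpl value was 0.43.

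Shares of positive cells depend on depth, so each cell was also thinned at random to 1000 UMIs, as the mean of 100 draws. Mean shares over libraries were 52.6% in OIR and 11.3% in Ctrl for Apoc1 before thinning and 20.4% and 2.69% after it. For Cst7 they were 37.7% and 8.59%, then 4.85% and 1.55%. For Spp1 they were 13.5% and 1.80%, then 4.08% and 0.328%. Lgals3 went from 14.1% and 1.65% to 5.27% and 0.638%. Lpl differed little, with 30.4% and 22.6%, then 7.73% and 4.79%. For Cd9 97.0% and 100% of cells were positive before thinning and 56.6% and 73.5% after it. Rod-like cells, which should lack these genes and have a median of 1840 UMIs against 7823.5 in microglia-like cells, were positive for Apoc1 in 0.394%, Lpl in 0.118%, Lgals3 in 0.126%, Spp1 and Gpnmb in 0.0197% and Cst7 in 0.00394% of cells.

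Cells with at least 2 of the 6 sparse members, Apoc1, Lpl, Spp1, Cst7, Lgals3 and Gpnmb, were a larger share in OIR. At 1000 UMIs per cell, 6.72 ± 1.55% of OIR cells and 0.540 ± 0.299% of Ctrl cells (SD, n = 3) held at least 2 of the 6. Without thinning, 26 OIR cells held none, 42 held 1, 26 held 2 and 15 held 3 or more, of 109. Of the 135 Ctrl cells, 84 held none, 35 held 1, 15 held 2 and 1 held 3 or more. Apoc1 and Cst7 shared 19 OIR cells and 1 Ctrl cell, and Apoc1 and Lpl shared 16 and 3. Over the same pooled cells 54 OIR and 13 Ctrl cells held Apoc1 and 35 and 12 held Cst7, while Lpl was in 29 of 109 and 36 of 135, and no test was made. The members were chosen on this contrast, and their single mean shares over libraries were also higher in OIR. These counts therefore cannot tell whether members met in cells beyond their single shares, which was not tested.

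**Figure D3:**
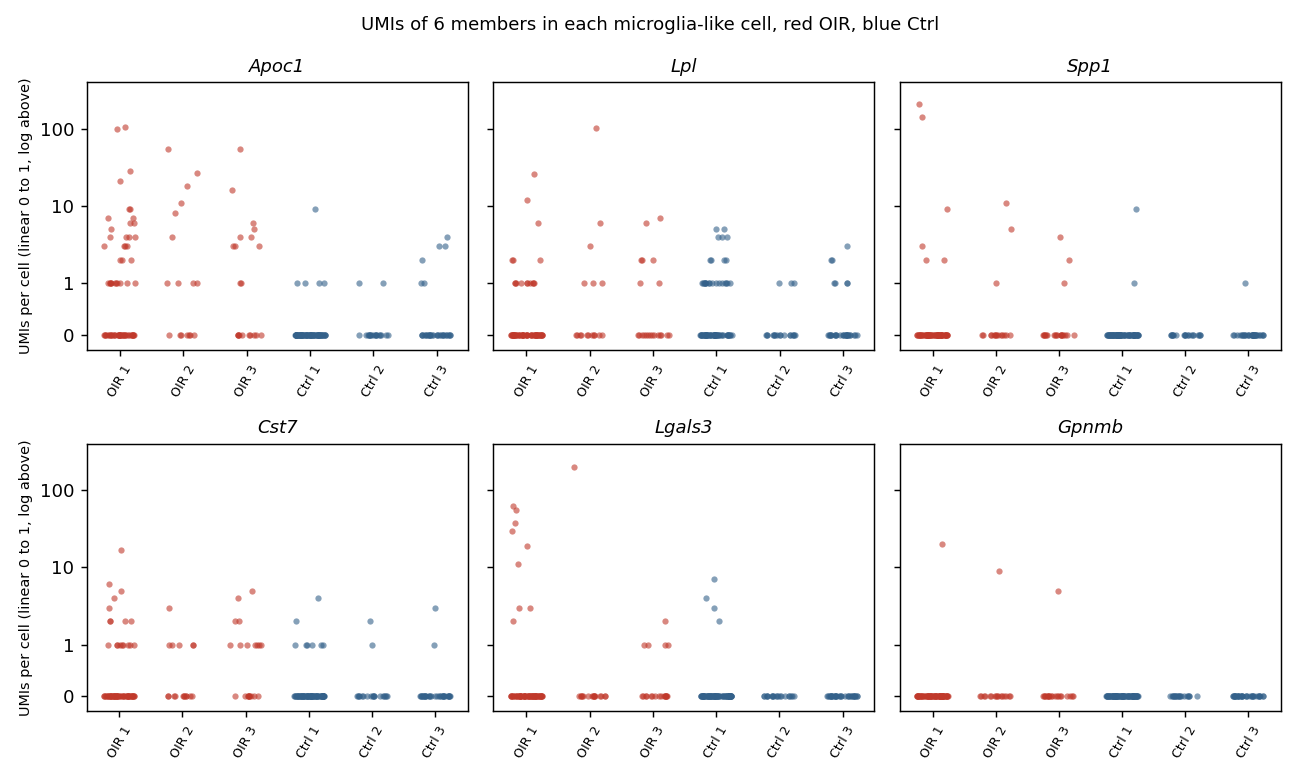
UMIs of each of the 6 sparse members in each microglia-like cell, by library, without thinning. The axis is linear at low values and log above. The highest Apoc1 count of a cell is 106 in OIR and 9 in Ctrl, and that of Spp1 is 208 and 9.

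The cells with the highest counts differed in which members they held. One OIR-2 cell of 23040 UMIs held 692 Apoe, 198 Lgals3, 103 Lpl, 54 Apoc1, 48 Cd9, 9 Gpnmb, 5 Spp1 and 3 Cst7 UMIs. It held no P2ry12 or Tmem119 and 4 UMIs of the macrophage marker Pf4. One OIR-1 cell held 106 Apoc1, 68 Trem2 and 56 Lgals3 UMIs, no Spp1 and 5 Pf4 UMIs. Another OIR-1 cell held 208 Spp1, 94 Cd9, 62 Lgals3 and 26 Lpl UMIs and no Apoc1. A further OIR-1 cell held 144 Spp1, 28 Apoc1 and 17 Cst7 UMIs, the highest Cst7 count of any cell. No microglia-like cell of Ctrl held 10 or more UMIs of Apoc1, Lpl, Spp1, Cst7, Lgals3 or Gpnmb.

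Macrophages also express several members, and their markers were not equal between the groups. The summed level of 10 macrophage and monocyte markers in the microglia-like cells was 708, 27.8 and 1769 CPM in OIR and 1.70, 182 and 0 CPM in Ctrl. Of these 10 markers 8 were detected, and Ccr2 and Ly6c2 were at 0 in all libraries. The Gpnmb-positive cells of OIR-1 and OIR-3 held 28 and 35 Mrc1, 157 and 288 Pf4 and 13 and 26 Ms4a7 UMIs. That of OIR-2 held 4 Pf4 UMIs and no Mrc1 or Ms4a7, and the OIR-1 cell with 106 Apoc1 UMIs held 5 Pf4 UMIs. Cells with at least 3 UMIs over Mrc1, Pf4 and Ms4a7 numbered 4, 1 and 1 in OIR and 0, 1 and 0 in Ctrl. Without them Apoe was 42120, 46060 and 51294 CPM in OIR and 16055, 17135 and 19664 CPM in Ctrl, and Apoc1 335, 459 and 422 against 22.1, 15.0 and 73.8 CPM. Gpnmb then had 0 counts in all 6 libraries. Lgals3 had 222, 0 and 16.9 CPM in OIR. Summed rod markers were 2271 to 3584 CPM in OIR and 2542 to 6047 CPM in Ctrl. Summed markers of Müller glia were 944 to 1466 CPM in OIR and 986 to 1208 CPM in Ctrl, with 9 of 10 detected. Of 5 astrocyte markers Gfap, Pax2 and Gja1 were at 0 and 2 were detected, at a summed level of at most 2.60 CPM.

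A second, shallow cluster of 373 cells, led by the neutrophil gene S100a9 and left unnamed, held 325 cells with at least 4 microglia markers. This split was chosen after the values were seen. In those cells Apoe was 23804, 31046 and 23058 CPM in OIR and 12968, 8103 and 12272 CPM in Ctrl. Apoc1 was 287, 237 and 454 against 22.7, 164 and 114 CPM, and Cst7 54.7, 73.1 and 73.4 against 9.10, 32.9 and 0 CPM. These 3 genes did not overlap, but the cells come from the same libraries as the microglia-like cells. The share of all genes that separated in this cell set was not computed. Cd9 was not lower in OIR there, at 802, 849 and 587 CPM against 723, 394 and 427 CPM. Cd9, Trem2, Lpl, Spp1, Lgals3 and Gpnmb overlapped.

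Lists of related genes were tested in the microglia sums with edgeR's quasi-likelihood test. Calls needed Benjamini-Hochberg adjusted p-values below 0.05 together with log2 fold changes of 0.25 or more in either direction. Over all genes 11 of 3393, or 0.324%, were called, and none of the genes in the 9 lists. At an unadjusted p under 0.05, which 9.43% of all genes reached, the lists did hold genes. DESeq2 called 7 list genes, Lyz2, Abca1 and Lgals3bp higher and Cst3, Selplg, Tmem119 and Tgfbr1 lower.

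Of 32 other DAM genes, 22 were tested, 17 had a positive and 5 a negative log2 fold change, and the median was 0.28 against -0.0069 over all genes. Of these, 7 had an unadjusted p under 0.05, all higher in OIR, and 3 did not overlap. Lyz2, the lysozyme of phagocytes, had 1256, 833 and 1491 CPM in OIR and 395, 685 and 644 CPM in Ctrl (log2 fold change 1.13, SE 0.27, edgeR adjusted p = 0.103). Macrophages share Lyz2, and their marker sums are given above. Fabp5, a fatty acid carrier, had 87.0, 766 and 68.3 CPM against 28.9, 34.97 and 42.2 CPM (3.01, edgeR adjusted p = 0.120). OIR-2 lay far above the other libraries, and Fabp5 is also in the lipid list. The filter on low counts can keep a sparse gene through its higher group alone, as it kept Fabp5 through OIR. The genes counted as higher in OIR here and in the lipid list include Fabp5.

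The 18 homeostatic microglia genes were all tested, and 16 had a negative log2 fold change, with a median of -0.49. In 8 the unadjusted p was under 0.05, all lower in OIR, and in 7 the groups did not overlap. Cst3, cystatin C, had 11969, 8780 and 9753 CPM in OIR and 22537, 21705 and 26495 CPM in Ctrl (-1.18, SE 0.24, edgeR adjusted p = 0.0511). Selplg, the P-selectin ligand, had 1026, 644 and 779.9 CPM against 1451, 2014 and 1730.1 CPM (-1.02, edgeR adjusted p = 0.103). Neither passed the threshold.

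Of 42 lipid and cholesterol genes only 15 passed the filter, 12 with a positive value, a median of 0.32, and 5 with an unadjusted p under 0.05, all higher in OIR. Abca1, which exports cholesterol to apolipoproteins, had 166, 461 and 342 CPM in OIR and 100.4, 119 and 132 CPM in Ctrl (1.44, SE 0.32, edgeR adjusted p = 0.0984). Of 10 Trem2 signalling genes, 9 were tested, with a median of 0.16 and none with an unadjusted p under 0.05. Inpp5d (0.21, edgeR adjusted p = 0.861) and Spi1 (0.20, adjusted p = 0.869) overlapped between the groups, as Trem2 did.

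Partners and receptors of Spp1, Lgals3, Gpnmb and Cd9 had 7 of 13 genes tested and a median of -0.34. Lgals3bp, which binds galectin-3, had 348, 244 and 346 CPM in OIR and 102, 231 and 58.0 CPM in Ctrl (1.40, SE 0.35, edgeR adjusted p = 0.106). Igsf8, a partner of Cd9, had 40.3, 44.4 and 48.2 CPM against 61.2, 133 and 68.6 CPM (-0.85, edgeR adjusted p = 0.406), lower like Cd9 itself and also short of the threshold. Of 16 lysosomal genes 13 were tested, with a median of 0.33, and 2 higher and 1 lower with an unadjusted p under 0.05. The lower one is Cst3, which is in both lists. Grn, progranulin, had 1623, 1777 and 1817 CPM against 1310, 1168 and 1129 CPM (0.55, edgeR adjusted p = 0.381).

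Genes of dissociation stress, which can differ between preparations, leaned lower in OIR, with 9 of 10 tested, a median of -0.66, and 3 lower and 1 higher with an unadjusted p under 0.05. Junb (-0.66, edgeR adjusted p = 0.234) and Jun (-0.70, adjusted p = 0.286) did not overlap. Their part in the other differences was not tested. Among macrophage markers only Ms4a7 passed the filter (1.55, edgeR adjusted p = 0.705), and of 10 cell cycle genes 3 did, Tuba1b (-0.34, adjusted p = 0.706) and Stmn1 (-0.62, adjusted p = 0.732) among them.

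**Figure D4:**
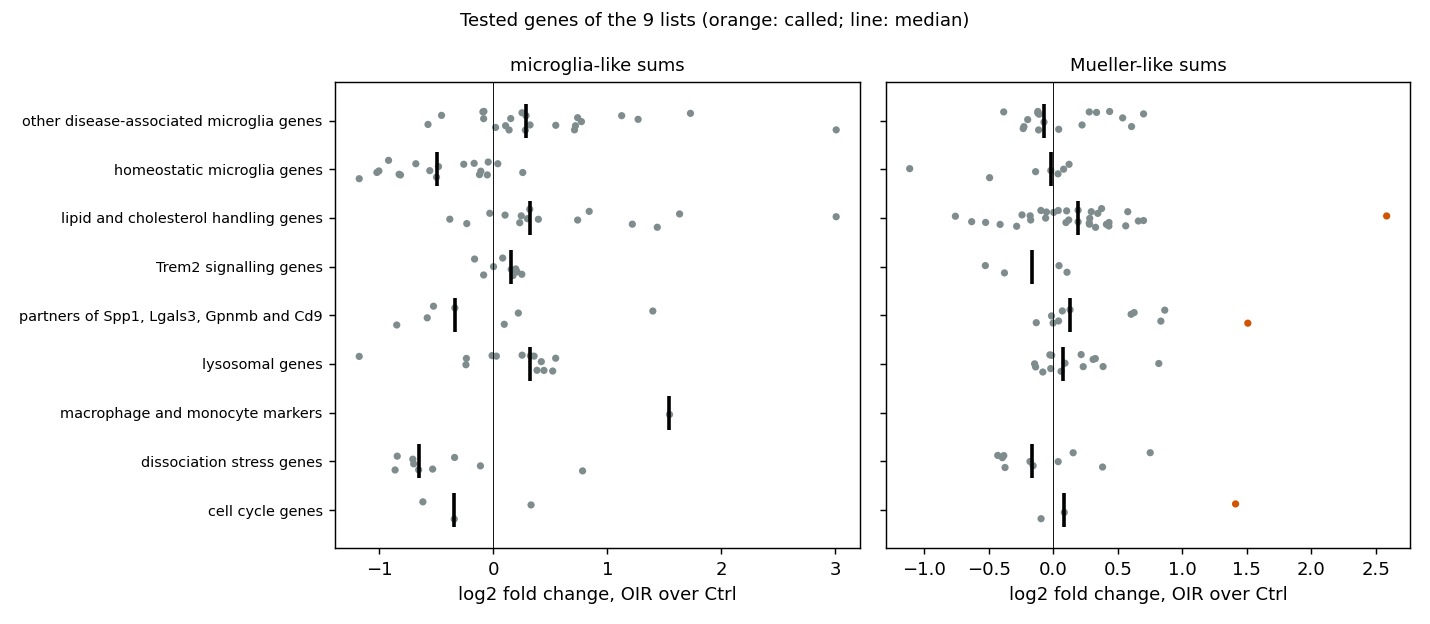
Log2 fold change (OIR over Ctrl) of every tested gene of each list in microglia-like and Müller-like sums, 1 point per gene, with the median of the list as a bar. In microglia the homeostatic genes centre at -0.49 and the other DAM genes at 0.28.

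Across the retina most Apoe RNA was in Müller glia. Müller-like cells held 69.3, 63.7 and 52.5% of the Apoe UMIs of kept cells in OIR and 80.5, 79.6 and 72.8% in Ctrl, and microglia-like cells 21.1, 17.7 and 31.3% and 7.19, 9.21 and 20.3%. These shares also follow the number of cells of each type. The Müller-like level was 13146, 8307 and 6449 CPM in OIR and 18120, 9659 and 7822 CPM in Ctrl. The groups overlapped (log2 fold change -0.40, SE 0.37). OIR-1 and Ctrl-1 were the highest library of their group, also in rod-like cells, where Apoe ran from 40.1 to 196 CPM. The CPM of Apoe was higher in microglia-like than in Müller-like cells in 5 of the 6 libraries, the exception being Ctrl-1.

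**Figure D5:**
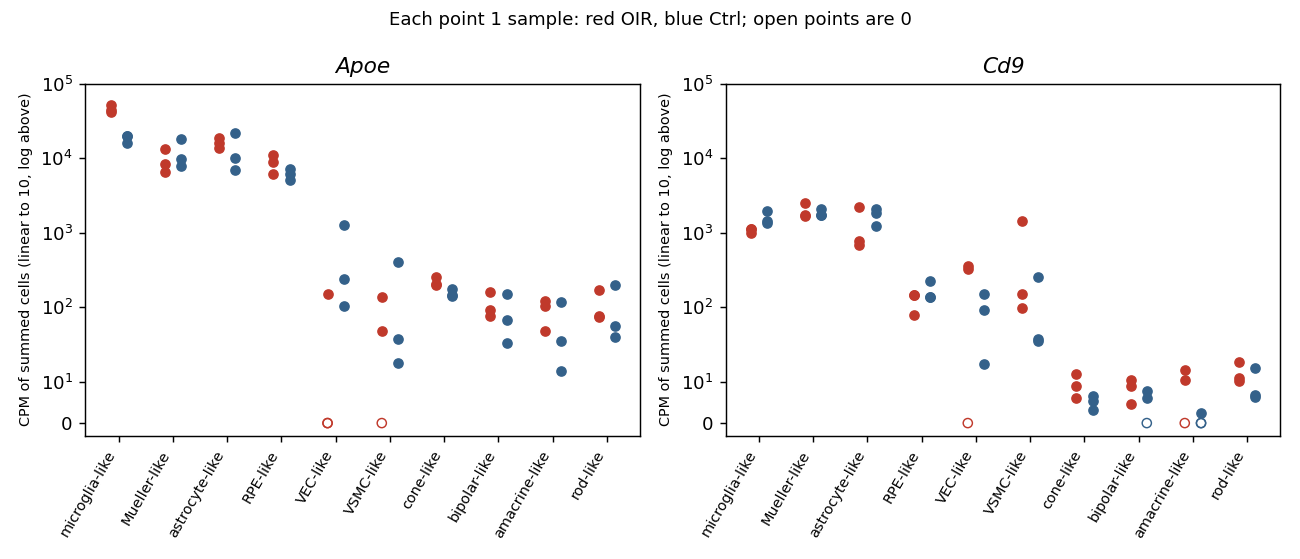
CPM of Apoe and Cd9 by cell type, 1 point per library, on an axis that is linear at low values and log above. Apoe is high in microglia, Müller glia, astrocyte-like and RPE-like cells, and Cd9 in Müller glia, microglia and astrocyte-like cells.

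Over all libraries Apoe ran from 16055 to 50978 CPM in microglia-like cells, where the groups did not overlap, from 6900.0 to 21792 CPM in the 56 astrocyte-like cells, from 6449 to 18120 CPM in Müller-like cells and from 5015 to 11162 CPM in cells of the retinal pigment epithelium (RPE-like). The OIR microglia lay above every library of the other 3 types, while the Ctrl microglia overlapped with astrocyte-like and Müller-like cells. The medians over libraries of photoreceptors, bipolar and amacrine cells lay between 75.1 and 187 CPM. In cone-like cells Apoe did not overlap either, at 208, 252 and 200 CPM in OIR and 175, 146 and 140 CPM in Ctrl. The share of all genes that separated in this way in cone-like cells was not computed, so nothing is read from it. The log2 fold change in cone-like cells was 0.43 (SE 0.14). The median of Cd9 was highest in Müller-like cells, at 1737 CPM, then astrocyte-like cells at 1526 CPM and microglia-like cells at 1225 CPM, and their ranges overlapped. In Müller-like cells Cd9 had 2481, 1744 and 1693 CPM in OIR and 1714, 1730 and 2079 CPM in Ctrl (log2 fold change 0.043, SE 0.21), so the lower Cd9 of OIR microglia had no counterpart there.

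Outside microglia the other 7 members had not been chosen on the contrast. Those that passed the filter were therefore tested, apart from Apoc1 in bipolar-like cells. Trem2 UMIs were 73.4 to 86.5% microglial. Apoc1 was also in Müller-like cells, with 75.4, 79.2 and 82.3 CPM in OIR and 59.5, 65.1 and 88.4 CPM in Ctrl, which overlapped (log2 fold change 0.10, SE 0.16, edgeR adjusted p = 0.823). Lgals3 in Müller-like cells had 67.1, 36.4 and 36.9 CPM in OIR and 16.3, 24.7 and 25.2 CPM in Ctrl. All OIR libraries lay above all Ctrl libraries, as 13.9% of the 11627 genes tested did (6.86% lay the other way), but the gene missed the threshold, and 37 of its 125 UMIs in OIR-2 came from 1 cell (1.11, SE 0.29, edgeR adjusted p = 0.0806). DESeq2 gave an adjusted p of 0.0143, and leaving out 1 library in turn gave edgeR adjusted p-values from 0.0694 to 0.209. Of all genes tested in Müller-like cells 2.74% were called.

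Apoc1 in bipolar-like cells was low but separated, with 3.59, 4.64 and 5.17 CPM in OIR and 1.19, 0.867 and 1.58 CPM in Ctrl (1.78, SE 0.39, edgeR adjusted p = 0.0502, where 1.23% of genes were called). Its counts were 39, 14 and 17 against 17, 2 and 3, at a level near the 1.04 to 2.90 CPM of rod-like cells, so free RNA cannot be told apart from expression. Apoc1 in rod-like cells (0.54, edgeR adjusted p = 0.468, 2.56% of genes called) did not pass. Lpl had another source in amacrine-like cells, with 193, 249.9 and 133 CPM in OIR and 74.2, 131 and 167 CPM in Ctrl (0.75, SE 0.37, edgeR adjusted p = 0.805). The 145, 4 and 15 VEC-like cells of Ctrl held 54, 2 and 0 Lpl UMIs (48.0, 34.7 and 0 CPM), and the 23, 2 and 2 VEC-like cells of OIR held 0. At 3 counts the floors in OIR-1, OIR-2 and OIR-3 were 14.9, 354 and 877 CPM, so the 0 of OIR-2 and OIR-3 says little. In amacrine-like cells edgeR called 0% of the 3894 genes tested, 235 had an unadjusted p under 0.05 and DESeq2 called 3. Gpnmb was chiefly in RPE-like cells, with 638, 513 and 472 CPM in OIR and 514, 664 and 186 CPM in Ctrl (0.045, SE 0.36, edgeR adjusted p = 0.992, 0.0567% of genes called). Cst7 and Spp1 had 1 and 0 UMIs in 3897 Müller-like cells.

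The gene lists were also tested in Müller-like cells, where 15.6% of genes had an unadjusted p under 0.05. There 3 list genes were called, all higher in OIR, Lgals3bp and Hmgb2 among them. Lgals3bp rose to 40.2, 23.3 and 48.7 CPM from 12.2, 16.9 and 8.19 CPM (1.51, SE 0.30, edgeR adjusted p = 0.0280), the same direction as in microglia. Hmgb2, a chromatin protein of dividing cells, had 189, 256 and 299 CPM against 100.6, 91.8 and 70.2 CPM (1.41, SE 0.18, edgeR adjusted p = 0.00570). With 1 library left out in turn, Hmgb2 kept its call in all 6 cases and Lgals3bp in 1 (without OIR-2). With a term for sex the log2 fold change of Hmgb2 was 1.24. That fit in effect compares the 3 OIR libraries with the 1 Ctrl library whose Y-linked counts exceeded Xist, so its calls are not given.

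The remaining lists held no call in Müller-like cells by edgeR, and the median of the 33 lipid genes tested was 0.19, with 6 higher and 4 lower at an unadjusted p under 0.05. Among other DAM genes, 3 of 17 had such a p, Csf1 (0.61, edgeR adjusted p = 0.191) and Fabp5 (0.70, adjusted p = 0.212) with the lowest. Mef2c (-1.11, adjusted p = 0.112) and Mertk (-0.49, adjusted p = 0.237) led the homeostatic list, in which 2 of 7 genes had an unadjusted p under 0.05. Among the 14 lysosomal genes tested, 1 had an unadjusted p under 0.05, and Tfe3, a factor that drives lysosomal genes, had a value of 0.39 (edgeR adjusted p = 0.367). The Trem2 signalling genes Adam10 (-0.38, adjusted p = 0.368) and Vav3 (-0.53, adjusted p = 0.629) and the stress genes Atf3 (0.75, adjusted p = 0.4995) and Hspa1a (-0.43, adjusted p = 0.572) had no gene with an unadjusted p under 0.05 in their lists. DESeq2 added Clu (lower) and Sdc4 (higher), for 5 calls in all lists.

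Likeness of pattern was measured as Pearson's r of log CPM over 11 cell types among 7091 genes. The genes most like Apoe were Phgdh (0.930), Renbp (0.928) and Sgpl1 (0.921). Those most like Cd9 were Ggh (0.961), Lpcat3 (0.958) and Suclg2 (0.956). Trem2 was matched most closely by Bcl2a1b (0.995), which has near-identical copies, Tnfrsf13b (0.994) and Siglech (0.994). The values share libraries and depth and are a description.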

How the data were processed

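The deposited counts were UMIs per gene and cell barcode, made by the authors with Cell Ranger from 10x 3' v3 libraries. The sources differ on the reference (mm10 per the labels, a human build in the methods) and on the version (3.1.0 in the matrix headers); the gene identifiers are those of mouse. As the study did, cells with 500 to 5000 genes and at most 20% mitochondrial counts were kept, and OIR and Ctrl were integrated by canonical correlation in Seurat 5.3.0 (2000 variable genes, 15 dimensions, 20 neighbours, resolution 0.5). Clusters were named from marker lists, bipolar clusters were merged, and clusters under 20 cells were left unnamed. Doublets were not removed in the reported values; leaving out the highest Scrublet scores (0.8% per 1000 cells) was an alternative. Raw counts were summed per library and type and tested with edgeR 4.0.16 (TMM, filterByExpr, quasi-likelihood, Benjamini-Hochberg over all genes tested of a type). DESeq2 1.42.0 was an alternative, and the fit was tested on simulated data. Depth per library is given with the samples, and a count of 0 allows up to 3 counts. Coordinates are those of GENCODE vM21.

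The members, the 9 gene lists and the tests were chosen with earlier results of these data known. The genes named are all 9 members, per list and sum the called genes of lowest p (at most 6 a direction) or else the 2 tested genes of lowest p, and the 3 genes of most similar pattern for Apoe, Cd9 and Trem2. Clec7a was not analysed here. Genes that this rule names but the text does not give are not reported here. Chosen after seeing the data were the mean of 100 draws in thinning (single draws varied), thinning to 3000 UMIs, the neighbours of Apoe, the split of the shallow cluster, the removal of the highest cell or of cells with macrophage markers, the deeper Müller-like cluster, the term for sex, and, for clustering without integration (scanpy 1.11.5, Leiden 0.5), taking clusters with at least 4 microglia markers among their top 10 genes, since naming as planned found no microglia-like cluster there. Whether replicate numbers pair the libraries was checked: deviations of libraries with the same number correlated at 0.212, -0.076 and 0.0326 in microglia-like and 0.228, -0.0451 and 0.238 in Müller-like sums, so the numbers were not taken as pairs.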

Additional observations from a re-analysis of the deposited data

How the results depend on the processing

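Over the alternatives run, 339 values tied to a comparison kept their direction and side or stayed within the spread, and 62 moved. Among values held against the threshold, 4 changed sign and 4 came to pass it. These include Apoc1 in bipolar-like cells, whose fit is a description. The other values were sorted by spread alone, and some of them changed sign too. Apoe in Müller-like cells went from -0.40 to 0.036 without Ctrl-1. The microglial log2 fold change of Apoe ranged from 1.24 to 1.42 and that of Apoc1 from 3.34 to 4.60. Genes called higher and lower in microglia-like sums (10 and 1) numbered 17 and 9 with DESeq2, 117 and 17 without the filter on low counts, 21 and 2 without integration, and 2 to 40 and 0 to 3 with 1 library left out, 40 without OIR-2 and 2 without OIR-1. Lower genes numbered 2 with the replicate block, without the highest Scrublet scores and with a marker gate without the upper limit on genes. Calls with a term for sex are not given, since that fit sets OIR against 1 Ctrl library. List genes called in microglia (0) numbered 7 with DESeq2, 17 without the filter, 1 with the replicate block and 5 without integration. They numbered 2 with the marker gate, 6 with the gate and no upper limit and 0 to 6 with 1 library left out. Several of them are macrophage markers such as Pf4 and Mrc1. In Müller-like sums the calls (187 higher, 132 lower) became 384 and 308 without the filter and 49 to 200 and 26 to 225 with 1 library left out, and list genes called (3) became 5 with DESeq2, 7 without the filter and 1 to 4 with 1 library left out. The cause of these shifts was not tested.

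Lgals3 in Müller-like cells passed with DESeq2 (1.07, adjusted p = 0.0143) and without the filter (1.12, adjusted p = 0.00199 by edgeR). Apoc1 in bipolar-like cells, whose fit is a description, passed the threshold without the filter (1.79) and with the replicate block (1.71). It did not pass with DESeq2 (1.82) or with any 1 library left out (1.68 to 1.92). Small tested values changed sign. Apoc1 in Müller-like cells went to -0.014 without Ctrl-1 (-0.014 to 0.29 with 1 library left out). Gpnmb in RPE-like cells went to -0.10 without OIR-1, -0.21 without Ctrl-3 and -0.021 with the term for sex. With 1 library left out Gpnmb there ranged from -0.21 to 0.38. The fit with the term for sex in effect sets the 3 OIR libraries against the 1 Ctrl library with Y-linked counts above Xist. In it Trem2 in microglia was -0.097, Cd9 -0.93, Apoe in Müller-like cells -1.0002 and in rod-like cells -1.02, and Cd9 in rod-like cells -0.40. These values therefore rest on 1 Ctrl library. With 1 library left out, Lpl in microglia ranged from 0.43 to 2.59, Cd9 from -0.66 to -0.25, Apoe in rod-like cells from -0.55 to 0.99 and in amacrine-like cells from 0.038 to 1.80. Gpnmb in microglia differed by 0 CPM without cells with macrophage markers. The share of cells with at least 2 sparse members was 44.2% in OIR and 10.2% in Ctrl without thinning, 11.8% and 1.65% at 2000 UMIs, and 16.4% and 3.34% at 3000 UMIs. Microglia-like cells numbered 17 in OIR-2 and 20 in Ctrl-2, which limits the precision of their values.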
